A study of Mus musculus with 8 samples.

Results

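The genes described here carry out transport and metabolism in the proximal tubule, the first tubule segment after the glomerulus. They were read in sorted distal convoluted tubule (DCT), the short segment beyond the thick ascending limb. A list of 39 proximal tubule genes was taken by symbol, and 36 of them were measured by a probe set with exactly 1 gene symbol, out of 18782 genes measured that way. Each of the 36 had 1 such probe set. Probe sets for Ass1 and Slc5a10 carried a second symbol, Ggt1 was not matched, and no value is given for these 3.

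Fluorescent DCT was collected on a large-particle sorter from male C57/Bl6 mice aged 8 weeks. All mice of both groups carried EGFP under the parvalbumin promoter, a transgene that lights up DCT, so every sample was chosen by the activity of that promoter. The TBC1D4-deficient group and the TBC1D4 wild-type group had 4 arrays each, and every array read labelled cDNA made from 100 ng of RNA. TBC1D4 is a Rab GTPase-activating protein that acts in insulin-regulated vesicle traffic. The labels do not state how the gene was inactivated, whether animals were pooled, or whether each array is a separate animal. A p-value here therefore measures only the spread among these 8 samples, which may be technical.

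Proximal tubule cells reclaim most of the filtered sodium, phosphate, bicarbonate, glucose and protein, and they secrete organic anions into the urine. Their brush border is packed with transporters and peptidases, and their cytoplasm with enzymes of amino acid, fatty acid and drug metabolism. Early segments (S1 and S2, the convoluted part) and the late segment (S3, the straight part) differ in which carriers they use. The DCT has its own apical carrier, the thiazide-sensitive sodium chloride cotransporter Slc12a3, so the listed genes are textbook markers of a different tubule from the one that was sorted.

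The sorted tissue carried its defining markers. Slc12a3 lay between 11.45 and 11.56 on the log2 intensity scale over the 8 arrays, and 12 measured DCT genes had slopes of -0.06 to 0.08 on the proximal tubule mean described next. Tbc1d4 itself lay at 2.21 to 2.72 under the TBC1D4-deficient label and at 6.58 to 6.94 under the wild-type label. The array of TBC1D4-deficient replicate 1 stood apart for the proximal tubule genes: it was the lowest of the 8 arrays for 33 of the 36. The sample descriptions hold a running number from 5 to 12 and an identifier that falls in a lower and a higher range, both of unstated meaning, and values within these ranges are given beside the comparison of genotypes.

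Proximal tubule genes rose and fell together from array to array. Their mean, with each gene first centred on its own mean over the 8 arrays, was -0.98, 0.27, 0.03 and 0.08 in TBC1D4-deficient replicates 1 to 4. It was -0.49, -0.29, 0.68 and 0.71 in wild-type replicates 1 to 4. The high arrays were thus both wild-type (replicates 3 and 4), the low ones came from both genotypes, and the genotypes overlapped. From the lowest array to the highest, the mean spanned 1.69 on the log2 scale, a 3.22-fold difference. In bulk samples, fewer proximal tubule cells and less of these RNAs per cell cannot be told apart.

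**Figure D1:**
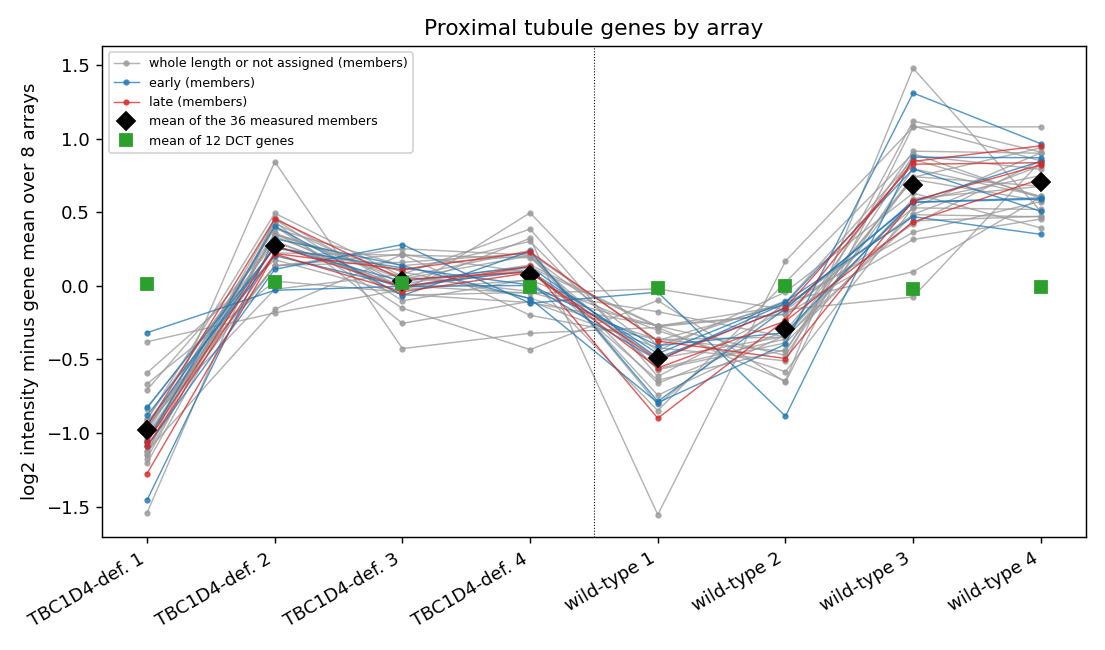
Log2 intensity of each measured proximal tubule gene minus its own mean over the 8 arrays (vertical axis), for each array (horizontal axis), with 1 line per gene that only joins its values, since arrays have no order. Black diamonds are the mean of the 36 genes, whose lowest value is -0.98 (TBC1D4-deficient replicate 1) and whose highest is 0.71 (wild-type replicate 4); green squares are the mean of 12 DCT genes, which lies close to 0 on every array.

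The common movement was large beside that of other genes. Between arrays, the standard deviation of a proximal tubule gene was 0.31 to 1.03 with a median of 0.59, against a median of 0.12 over all 18782 genes. The top 1% of all genes by that standard deviation, 188 genes, held 29 of the 36. The list was made with earlier results of these data known, so this share is no test. A single gene differed 1.91 to 6.80-fold between its lowest and highest array (median 3.43-fold), against a median of 1.27-fold over all genes. The 630 pairs of genes had Pearson correlations of 0.50 to 0.99 over the 8 arrays (median 0.92), and of 0.24 upwards (median 0.89) without TBC1D4-deficient replicate 1. These correlations describe arrays that share one platform and one normalization, and carry no test.

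How far each gene followed the others was expressed as a slope: the change in its log2 value per unit change in the mean of the other 35. A slope of 1 is a gene that moves like the average of the group, and since the mean is made of these genes their median lies near 1 by construction. The slopes ran from 0.48 to 1.68 with standard errors of 0.04 to 0.33. A slope of at least 0.5 was found for 35 of the 36, and for 1.35% of all genes. That share too describes a list made with earlier results of these data known. Of the 36, 8 had slopes under 0.8, 23 lay between 0.8 and 1.2, and 5 were above 1.2. Differences between genes were partly larger than their errors: 7 slopes were more than 2 standard errors below 1 and 6 were that far above it, while 23 were within 2 standard errors of 1. The correlation of each gene with the others' mean was 0.78 to 0.99 (Spearman 0.50 to 1). Without the 2 arrays farthest from the median of that mean it was 0.244 (Slc22a30) to 0.996 (Cyp2j5), with a median of 0.935.

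**Figure D2:**
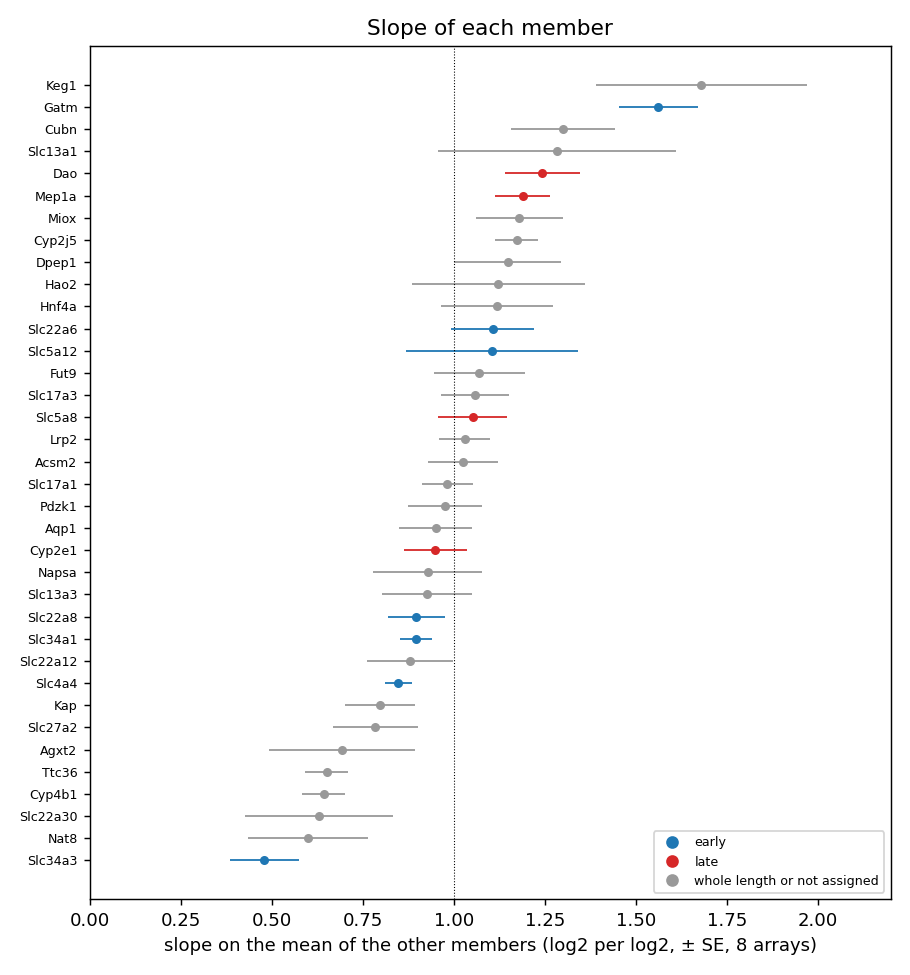
Slope of each of the 36 measured genes on the mean of the other members over 8 arrays (horizontal axis, log2 per log2; bars are 1 standard error), ordered by slope. Slc34a3 has the smallest slope, 0.48, and Keg1 the largest, 1.68, and early (blue) and late (red) segment genes are interleaved.

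Hnf4a, the nuclear receptor that drives proximal tubule differentiation, moved with the carriers and enzymes of the list. Its log2 intensity was 5.48, 7.00, 6.45 and 6.59 in TBC1D4-deficient replicates 1 to 4 and 5.70, 6.57, 7.45 and 7.14 in wild-type replicates 1 to 4. Wild-type replicate 2 was 0.36 above the value its slope gives, the largest departure of this gene. The slope was 1.12 (SE 0.15).

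HNF4A binds promoters of many proximal tubule genes, and because these genes moved together their promoters were searched for the letters CAAAGTCCA, a motif of this factor (TGGACTTTG on the other strand). The windows were those of RefSeq (GRCm38.p6), from 250 bases before to 50 after a transcript start. Of the 36 measured genes, 31 had at least 1 window, 40 windows in all. The motif occurred in 4 of the 40 (10%), against 0.475% of all 32851 windows. These were 2 overlapping windows of Agxt2, which share the same match, and 1 each of Pdzk1 and Nat8. By gene, 3 of the 31 had the motif, and the share by gene was not taken over all windows. A match is a description of the letters and was not tied to the values on the arrays.

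The 100 bases before a start of Agxt2 are shown, on the plus strand at chr15:10358433-10358532 and written 5′ to 3′, to let the match be seen in place. Capitals mark the motif.
Agxt2: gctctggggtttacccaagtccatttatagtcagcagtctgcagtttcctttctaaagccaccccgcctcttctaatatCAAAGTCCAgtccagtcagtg
The match starts at position -21 from this transcript start. In Pdzk1 and Nat8 the matches start 14 and 2 bases after the first transcribed base. The slopes of Agxt2, Pdzk1 and Nat8 were 0.69, 0.98 and 0.60.

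The endocytic receptors megalin (Lrp2) and cubilin (Cubn), which take up filtered protein together, tracked the group. Lrp2 read 6.10, 7.51, 7.26 and 7.08 in TBC1D4-deficient replicates 1 to 4 and 6.80, 6.82, 7.91 and 7.84 in wild-type replicates 1 to 4. Cubn read 4.73, 6.34, 5.65 and 5.80 in the TBC1D4-deficient arrays and 5.48, 5.39, 7.02 and 6.81 in the wild-type arrays, replicates in the same order. Both were lowest in TBC1D4-deficient replicate 1 and highest in wild-type replicate 3. Cubn was the steeper, at 1.30 (SE 0.14) against 1.03 (SE 0.07) for Lrp2. Levels of different genes come from different probe sets and are not compared with each other, only their movement between arrays.

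Among sodium-coupled carriers, the sodium phosphate cotransporter Slc34a1 (NaPi-IIa) was among the closest followers of the mean. It read 8.66, 9.87, 9.63 and 9.73 in the TBC1D4-deficient arrays and 9.11, 9.44, 10.16 and 10.19 in the wild-type arrays, a slope of 0.90 (SE 0.04) with r = 0.99. Its relative Slc34a3 (NaPi-IIc) was the flattest of all members, at 3.44, 3.73, 3.76 and 3.86 against 3.30, 3.65, 4.23 and 4.11, with a slope of 0.48 (SE 0.09). Slc34a3 was also 1 of 4 members with a mean log2 intensity under 4, where a low signal cannot be told from background and a change can be understated. Slc4a4, the basolateral sodium bicarbonate cotransporter, had the highest correlation with the other members (0.99), a slope of 0.85 (SE 0.04) and a residual standard deviation of only 0.06.

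The monocarboxylate carriers Slc5a8 and Slc5a12 reclaim lactate, Slc5a12 in early segments and Slc5a8 in late ones. Slc5a8 read 4.98, 6.29, 6.18 and 6.30 in the TBC1D4-deficient arrays and 5.69, 5.58, 6.65 and 6.89 in the wild-type arrays, with a slope of 1.05 (SE 0.09). Slc5a12 read 4.004, 5.21, 5.37 and 4.98, and 5.05, 4.21, 5.97 and 5.96. Their slopes hardly differed, at 1.10 (SE 0.24) for Slc5a12, but Slc5a12 split wild-type replicates 1 and 2: it stood 0.51 above its fitted line in the first and 0.58 below it in the second. The sulfate carrier Slc13a1 departed most from the group, with a residual standard deviation of 0.50. It read 5.04, 7.03, 5.76 and 5.87 in the TBC1D4-deficient arrays and 5.91, 5.54, 7.67 and 6.70 in the wild-type arrays, high in TBC1D4-deficient replicate 2 and wild-type replicate 3. Its slope was 1.28 (SE 0.33). Slc13a3, a carrier of dicarboxylates, was more regular at 0.93 (SE 0.12).

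Organic anion transporters secrete drugs and metabolites, and urate carriers handle uric acid. Slc22a6 (OAT1) read 6.17, 7.63, 7.16 and 7.46 in the TBC1D4-deficient arrays and 6.44, 7.07, 7.80 and 8.07 in the wild-type arrays, for a slope of 1.11 (SE 0.11). Slopes were 0.90 (SE 0.08) for Slc22a8 (OAT3) and 0.88 (SE 0.12) for the urate transporter Slc22a12 (URAT1). The phosphate and anion carriers Slc17a1 and Slc17a3 stood at 0.98 (SE 0.07) and 1.06 (SE 0.09). Slc22a30, an organic anion transporter of rodents, was the least tied to the group (r = 0.78, slope 0.63, SE 0.20). It read 2.85, 3.98, 3.68 and 3.63 in the TBC1D4-deficient arrays and 3.66, 3.52, 3.61 and 4.53 in the wild-type arrays. Wild-type replicate 3, the highest array for 17 members, was no higher than wild-type replicate 1 for this dim gene, and replicate 4 alone was high. Slc22a30 had 2 further probe sets that carry several symbols, and their values were not used for it.

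The water channel Aqp1, which thin descending limbs also express, read 4.55, 5.81, 5.39 and 5.41 in the TBC1D4-deficient arrays and 5.18, 4.98, 6.25 and 6.06 in the wild-type arrays. Its slope was 0.95 (SE 0.10). Slc27a2, a fatty acid transporter and acyl-CoA synthetase, was flatter at 0.78 (SE 0.12) and was the 1 member highest in TBC1D4-deficient replicate 2. Pdzk1, the scaffold that holds transporters in the brush border, had a slope of 0.98 (SE 0.10).

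Kap, the androgen-regulated kidney protein of mice, read 8.40, 9.50, 9.52 and 9.58 in the TBC1D4-deficient arrays and 8.99, 9.23, 9.72 and 9.93 in the wild-type arrays. TBC1D4-deficient replicate 1 lay more than 1 log2 unit below the other 3 of its group, which were close together. The slope of Kap was 0.80 (SE 0.10). The brush border peptidases followed more steeply: Mep1a, a subunit of meprin, had a slope of 1.19 (SE 0.08) and Dpep1, a dipeptidase, of 1.15 (SE 0.15). Napsa, an aspartic protease, stood at 0.93 (SE 0.15).

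The steepest members were enzymes. Gatm, which makes guanidinoacetate for creatine synthesis, read 6.30, 8.07, 7.89 and 7.66 in the TBC1D4-deficient arrays and 6.96, 7.35, 9.06 and 8.72 in the wild-type arrays, a 6.80-fold range. Its slope was 1.56 (SE 0.11), more than 2 standard errors above 1. Keg1, an acyltransferase related to glycine N-acyltransferase, read 6.41, 8.42, 7.93 and 8.28, and 6.40, 8.12, 9.03 and 9.03. It had the largest slope, 1.68 (SE 0.29), and the widest split of the low wild-type arrays: replicate 1 was 0.78 below its fitted line and replicate 2 was 0.68 above it. Keg1 was also 1 of 2 members lowest in wild-type replicate 1 and not in TBC1D4-deficient replicate 1.

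Of the remaining enzymes, Miox, which breaks down inositol, had a slope of 1.18 (SE 0.12). Dao, a D-amino acid oxidase, stood at 1.24 (SE 0.10) and Acsm2, a medium-chain acyl-CoA synthetase, at 1.02 (SE 0.10). Fut9, a fucosyltransferase, stood at 1.07 (SE 0.13) and Hao2, a peroxisomal hydroxyacid oxidase, at 1.12 (SE 0.24). Hao2 was dim, with a mean log2 intensity of 3.97. It read 2.97, 4.37, 3.81 and 3.53 in the TBC1D4-deficient arrays and 3.87, 3.31, 5.05 and 4.81 in the wild-type arrays. Like Slc5a12, it was higher in wild-type replicate 1 than in replicate 2, the order of 10 of the 36 genes.

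Flat slopes were found for Ttc36 (0.65, SE 0.06), Nat8, an N-acetyltransferase that makes mercapturates (0.60, SE 0.17), and Agxt2, a mitochondrial aminotransferase (0.69, SE 0.20). Without TBC1D4-deficient replicate 1, Ttc36 and Nat8 stayed flat at 0.70 and 0.53, while Agxt2 stood at 0.98. Agxt2 was dim and nearly level in the TBC1D4-deficient arrays, at 2.74, 2.93, 3.09 and 3.16, against 2.81, 2.53, 3.65 and 4.02 in the wild-type arrays. Flatness was not confined to dim genes. Cyp4b1, a monooxygenase of fatty acids and drugs, had a slope of 0.64 (SE 0.06) at 8.02, 9.03, 8.70 and 8.85 in the TBC1D4-deficient arrays and 8.45, 8.53, 9.04 and 9.18 in the wild-type arrays. The other cytochromes P450 were steeper, at 0.95 (SE 0.09) for Cyp2e1, which oxidises ethanol, and 1.17 (SE 0.06) for the arachidonic acid epoxygenase Cyp2j5. Across the 36 genes the slope had a correlation of 0.13 with the mean log2 intensity.

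**Figure D3:**
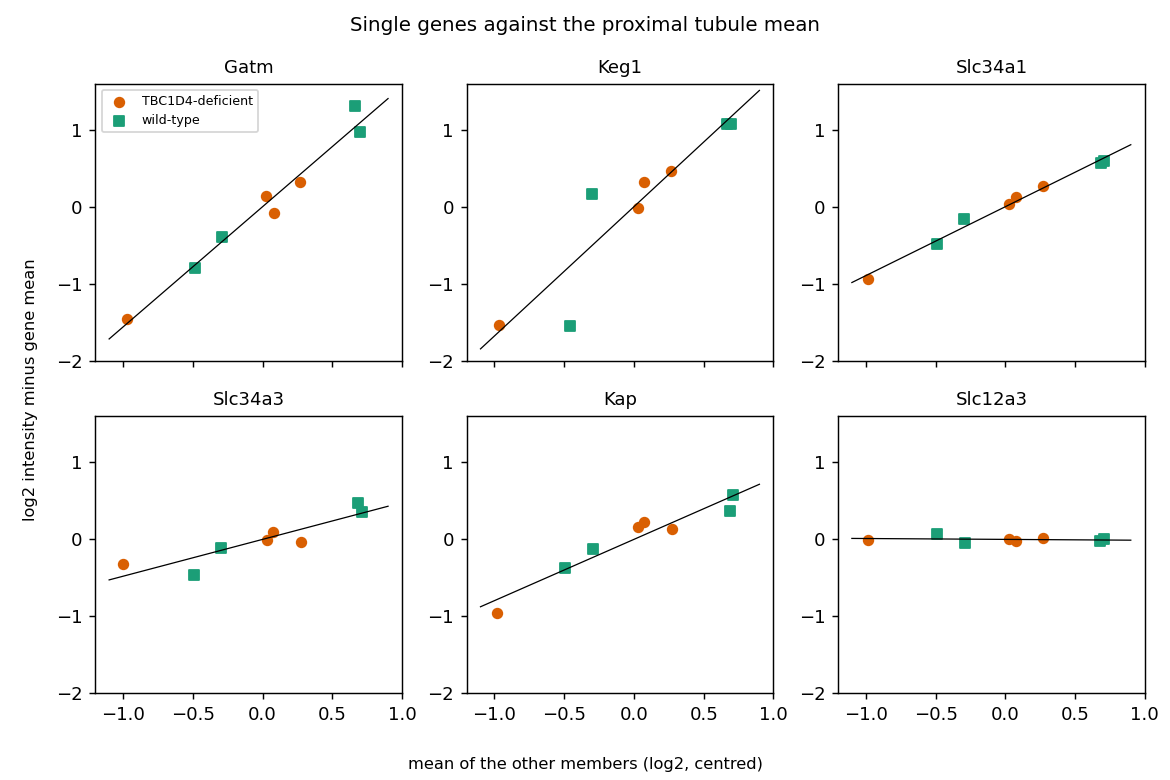
Log2 intensity minus the gene's mean (vertical axis) against the mean of the other members (horizontal axis, log2) for 5 proximal tubule genes and, for comparison, Slc12a3 against the mean of all 36; each point is 1 array and the line is the least-squares fit. Gatm (slope 1.56) and Keg1 (1.68) are steep, Slc34a3 (0.48) is flat, and wild-type replicates 1 and 2 lie off the line for Keg1.

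The genes of early and late segments were not separated by their movement. The early genes with a value were Slc34a1, Slc34a3, Slc5a12, Slc22a6, Slc22a8, Slc4a4 and Gatm, with a median slope of 0.90 (0.48 to 1.56). The late genes with a value were Slc5a8, Mep1a, Dao and Cyp2e1, with a median of 1.12 (0.95 to 1.24). The difference of medians, 0.22, was smaller than the spread among the early genes, whose range encloses that of the late ones. It was 0.139 without TBC1D4-deficient replicate 1, 0.143 without wild-type replicate 4 and 0.121 without the dim members. On each array, the mean of the late genes differed from that of the early genes by at most 0.16 on the log2 scale, while both moved by over 1.5. TBC1D4-deficient replicate 1 stood at -0.937 for early and -1.096 for late genes, and wild-type replicate 4 at 0.67 and 0.83. The other 25 members serve the whole length of the tubule or were not assigned to a segment.

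Segment genes outside the list gave the opposite order of medians only with dim genes included, also with overlapping ranges. Of 4 measured early genes, all had slopes above 0.5: the glucose transporters Slc5a2 (SGLT2) and Slc2a2 (GLUT2) stood at 0.88 and 0.79, and the amino acid transporters Slc6a19 and Slc7a9 at 0.73 and 0.85. Of 6 measured late genes, 3 did. Slc7a13 and Slc6a18, amino acid carriers of S3, stood at 1.06 and 0.96 and the fructose transporter Slc2a5 at 0.61, while the glucose transporter Slc5a1 (SGLT1) stood at 0.37. The other two, Cyp7b1 and Bcat1, are named because of their values: they were at -0.04 and -0.06 and dim, with mean log2 intensities of 1.72 and 2.15. Median slopes were 0.82 for the early and 0.49 for the late genes of these lists, dim genes included. Slc7a9 and Slc2a5 were dim as well, with mean log2 intensities of 3.36 and 3.48. Without the dim genes, the middle slope was that of Slc2a2 (0.79) among the early genes and of Slc6a18 (0.96) among the late ones. The order of these lists thus rested on the dim genes, and few genes remained without them.

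A further list of 37 proximal tubule genes, of which 31 were measured, held 17 with a slope of at least 0.5 (median 0.55). The steepest were Fbp1, an enzyme of gluconeogenesis (1.36), Glyat, a glycine acyltransferase (1.29), Alpl, the tissue-nonspecific alkaline phosphatase (1.22), and the organic cation transporter Slc22a2 (1.11). Others had slopes near 0: Abcc4, an efflux pump, stood at -0.07 and Enpep (aminopeptidase A) at -0.08. Neither was dim, with mean log2 intensities of 6.003 and 7.11. By genotype, 23 of the 31 lay below 0 and 8 above, against 50.9% of probe sets below 0. Since 17 of the 31 moved with the members at a slope of at least 0.5, these signs are not independent. Of the 31, 0 passed the adjusted threshold, against 0.00434% of probe sets.

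Markers of other cell types had smaller median slopes on the proximal tubule mean, from -0.01 to 0.23. Median slopes were -0.01 for the DCT list (0 of 12 genes at 0.5 or more), 0.05 for the thick ascending limb (1 of 6), 0.07 for thin limbs (1 of 4), 0.02 for principal cells (0 of 7) and 0.19 for intercalated cells (1 of 6). They were 0.01 for podocytes (1 of 5), 0.23 for endothelium (1 of 10) and 0.02 for immune cells (0 of 7). The thick ascending limb gene with a slope of 0.95 was the claudin Cldn10, which the proximal tubule also expresses, and the thin limb gene was Aqp1, itself a member. Some intercalated cell genes also varied widely between arrays: Aqp6 and Slc4a1 had standard deviations of 0.85 and 0.64, above the members' median, with correlations of 0.36 and 0.31 to the members' mean. The mean of that list ran from -0.28 to 0.37 in TBC1D4-deficient and from -0.22 to 0.43 in wild-type samples. The mean of the endothelial list was -0.39 in TBC1D4-deficient replicate 1 and 0.21 in both wild-type replicates 3 and 4. It ranged over -0.39 to -0.02 across TBC1D4-deficient samples and over 0.02 to 0.21 across wild-type samples, without overlap. Among single probe sets, 1.85% had groups without overlap. All endothelial genes but Emcn had mean log2 intensities under 4. The part of endothelial RNA in the movement of the proximal tubule genes was not tested. The mean of the DCT list stayed between -0.02 and 0.02 on every array.

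**Figure D4:**
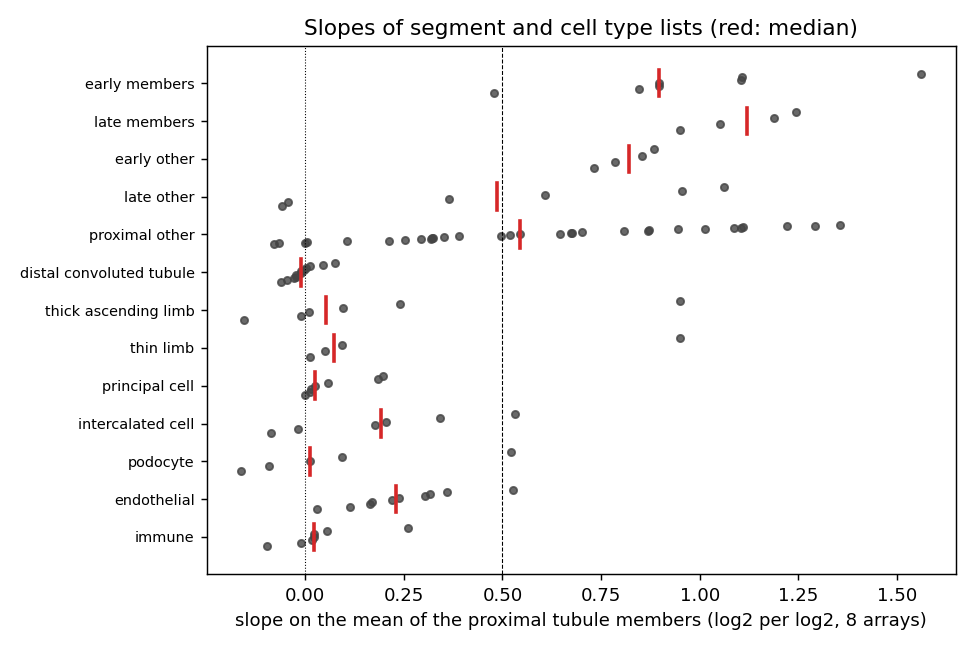
Slope of each gene on the mean of the proximal tubule members over 8 arrays (horizontal axis, log2 per log2), by list of segment or cell type (rows); points are genes, red bars are medians and the dashed line marks 0.5. The early and late members lie around 0.90 and 1.12, and the DCT genes lie at 0.

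Over all measured genes, 253 had a slope of at least 0.5, and 218 of these were not on the list. The 12 with the highest correlation to the members' mean had r of 0.990 to 0.996 over the 8 arrays. They were Kcnj15, a potassium channel (slope 1.10), Hsd3b3, a steroid dehydrogenase (1.05), Dgat2, which makes triglycerides (0.79), Slc6a20b, an imino acid transporter (1.10), Glyat (1.29), Enpp6 (0.93), Pecr, a peroxisomal reductase (1.16), Slc22a2 (1.11), the fatty acid desaturase Fads2 (1.14), the triokinase Tkfc (0.51), Pyroxd2 (0.77) and Ugt3a1 (1.47). Kcnj15 read 4.99, 6.51, 6.17 and 6.24 in the TBC1D4-deficient arrays and 5.65, 5.90, 6.85 and 6.89 in the wild-type arrays, the same order of arrays as Slc34a1. In the opposite sense, 153 genes had slopes of -0.25 or less. The 8 of these with the lowest correlation (Neu4, Cnpy1, Zcwpw2, Ccdc138, Ankrd37, Mir98, Olfr651 and Septin14) all had mean log2 intensities under 4 and slopes of -0.26 to -0.39.

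The comparison of genotypes asks whether loss of TBC1D4 went with a different level of proximal tubule RNA in the sorted DCT. No proximal tubule gene differed between genotypes beyond the spread between arrays. Over 23039 probe sets with a gene symbol, limma gave an adjusted p below 0.05 for 0 of the 36 genes, with 0.00434% of probe sets called (Tbc1d4 alone). At an unadjusted p below 0.05 the count was also 0 of 36, against 2.9% of probe sets, and the 2 groups did not separate for any of the 36, against 1.85% of probe sets. The smallest unadjusted p was 0.16, for Hao2 (limma adjusted p = 0.9999), a dim gene with a mean log2 intensity of 3.97.

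All 36 differences lay below 0, against 50.9% of probe sets, from -0.59 for Hao2 to -0.09 for Nat8, with a median of -0.27. The median over all probe sets was -0.0017. The 10 endothelial markers also all lay below 0, with a median of -0.28, on mean log2 intensities of 3.05 to 5.27. All but Emcn (5.27) were under 4, where a low signal cannot be told from background. Of these 10, 7 had an unadjusted limma p below 0.05, against 2.9% of probe sets, and 0 passed the adjusted threshold. Their part in the shift of the proximal tubule genes was not tested. Because the 36 proximal tubule genes moved together, their signs repeat largely the same difference between 8 arrays. The mean of the 36 averaged -0.15 ± 0.56 in the TBC1D4-deficient arrays (SD, n = 4) and 0.15 ± 0.63 in the wild-type arrays (SD, n = 4), so the spread within each genotype was larger than the difference. In TBC1D4-deficient replicates 2, 3 and 4 the mean was above that of wild-type replicates 1 and 2 and below that of replicates 3 and 4.

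Single genes gave wide intervals on the log2 scale. Hao2 differed by -0.59 (95% interval -1.45 to 0.28). Cubn averaged 5.63 ± 0.67 in TBC1D4-deficient and 6.18 ± 0.86 in wild-type arrays (SD, n = 4 each), a difference of -0.55 (95% interval -1.49 to 0.39). Gatm differed by -0.54 (-1.66 to 0.58) and Lrp2 by -0.35 (-1.11 to 0.40). Differences were -0.33 (-1.20 to 0.53) for Hnf4a and -0.33 (-1.04 to 0.38) for Aqp1. They were -0.26 (-1.06 to 0.53) for Slc5a8, -0.26 (-0.92 to 0.41) for Slc34a1, -0.24 (-1.09 to 0.61) for Slc22a6 and -0.22 (-0.84 to 0.40) for Kap. Only Slc34a3 had an interval inside a 1.5-fold change in either direction, so for the other 35 genes a difference of 1.5-fold or more was within the interval.

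**Figure D5:**
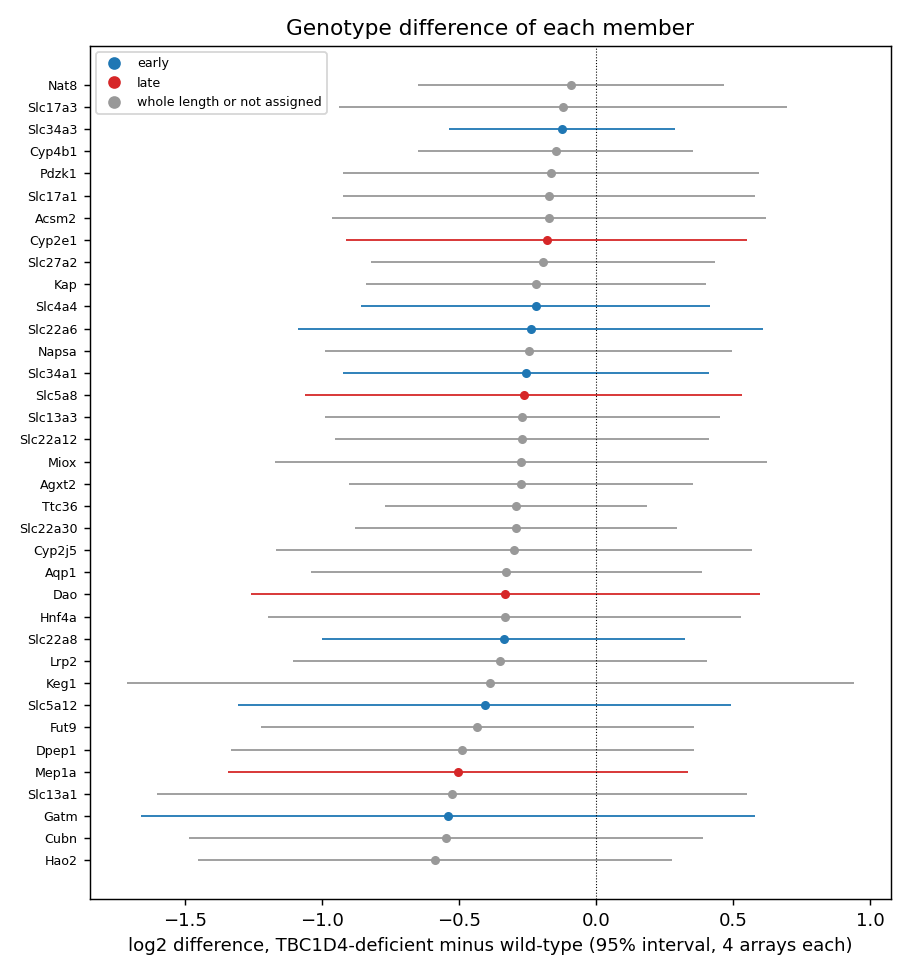
Log2 difference of each proximal tubule gene between TBC1D4-deficient and wild-type arrays (horizontal axis; bars are 95% intervals from limma, 4 arrays per group), ordered by size. All 36 points lie below 0, from -0.59 to -0.09, and all intervals include 0.

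The shared shift depended on single arrays and on which identifiers were compared. Leaving out TBC1D4-deficient replicate 1 took the median difference of the 36 genes to 0.0054. Leaving out wild-type replicate 4 or 3 gave -0.08 or -0.11. Leaving out wild-type replicate 1 gave -0.47, and TBC1D4-deficient replicate 2 gave -0.44. Among arrays with description numbers 5 to 8 the median was -0.13 and 25 of 36 genes were lower in TBC1D4-deficient arrays. Among those numbered 9 to 12 it was -0.42 and all 36 were lower (2 arrays of each genotype in both). The lower identifier range held 3 TBC1D4-deficient arrays and 1 wild-type array and gave 0.0029, with 18 genes below and 18 above 0. The higher range held 1 and 3 and gave -0.02, with 21 below and 15 above. With the identifier range as a covariate the median was -0.03. The range is unevenly spread over the genotypes, and its part in the shift was not tested further.

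The slopes were also computed within each genotype. Within the 4 TBC1D4-deficient arrays the median slope was 1.02 (0.25 to 1.65), and within the 4 wild-type arrays it was also 1.02 (0.41 to 1.76). Without TBC1D4-deficient replicate 1 the slopes were 0.44 to 1.76, and across the 36 genes they had a correlation of 0.94 with those from all arrays. The largest gap between genotypes was that of Agxt2, with 0.25 in TBC1D4-deficient and 1.03 in wild-type arrays, each from 4 arrays, and it was not tested.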

How the data were processed

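Per the deposited table, the authors gave 1 intensity per probe set and array on a linear scale for 28371 probe sets, made with Affymetrix Power Tools per the submitters' processing notes. Its version, the summarisation and the normalization are not stated there. That the scale is linear was read from the values. Array medians were 8.41 to 9.03 on that scale, so the arrays lay on a similar level; scaling of arrays can hide a shift of most genes. There is no detection call, and the number of arrays limits precision. Log2 was taken without a pseudocount or filter. The genotype test was the moderated test of limma 3.58.1 under R 4.3.3 (lmFit and eBayes, 2-sided, Benjamini-Hochberg over 23039 probe sets with a symbol, threshold 0.05). The 36 members had 1 probe set of exactly 1 symbol each. Slopes are least squares over 8 arrays, on the mean of the other members. The scripts were tested on simulated data. Members and lists were chosen with earlier results of these data known. The rule for named genes gives slopes for all members, differences for 9 measured members of a list and the one with the smallest p, the 12 and 8 other genes with the highest and lowest r, and up to 4 genes of each other list. Cyp7b1, Bcat1, Aqp6 and Slc4a1 were named after their values were seen, and Glyat and Slc22a2 fall under the highest r. Fbp1, Alpl, Abcc4, Enpep, Cldn10 and Emcn were also picked from their lists by value. Alternatives are named in the closing section. The result of 1 promoter search is not reported here.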

Additional observations from a re-analysis of the deposited data

Results flagged for a closer look

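In groups of 4 arrays, an array was singled out where its gap to the nearest other exceeded 0.829 of the group's range; chance does this in about 1 of 20 groups. Of 76 groups examined, 6 had such an array, against 3.8 by chance. In TBC1D4-deficient replicate 1, Slc5a8 read 4.98 (others 6.18 to 6.30), Slc17a1 5.55 (6.71 to 6.74), Kap 8.40 (9.50 to 9.58), Acsm2 6.56 (7.67 to 7.87) and Pdzk1 3.94 (4.99 to 5.11), all on the log2 scale. These genes are not independent, since they share the low array. Slc22a30 read 4.53 in wild-type replicate 4, against 3.52 to 3.66 in the other wild-type arrays.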

How the results depend on the processing

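Under every alternative run, 0 members were called by genotype and 1 probe set was called in all. The alternatives were a repeated quantile normalization, centring on array medians, a filter on dim probe sets, all probe sets of the table, the number set or identifier range as a covariate, a trend in eBayes, each array left out and the replicate block. In the replicate block the median member difference was -0.27 as in the unblocked fit, and same-numbered arrays correlated at 0.40, -0.19, 0.04 and 0.01 after removal of group means. With the identifier range as a covariate the median was -0.03, and Slc22a6, Slc5a8 and Aqp1 turned to 0.0276, 0.0612 and 0.0562. Leaving out each array in turn gave medians of -0.47 to 0.0054. It gave -0.462 to 0.0150 for Slc34a1, -0.541 to 0.0720 for Slc22a6, -0.474 to 0.0545 for Slc5a8 and -0.380 to 0.0628 for Kap. With the members' own mean as a covariate, chosen after seeing the data, Slc34a1, Slc22a6, Slc5a8, Kap and Hnf4a stood at 0.0176, 0.104, 0.0586, 0.0253 and 0.00548. Hao2, Cubn, Gatm, Lrp2 and Aqp1 stayed below 0, at -0.269, -0.171, -0.0819, -0.0441 and -0.0438. Since this covariate is made of the members, such differences average 0 over all members by construction. The median member slope was 0.99 to 1.02 over the alternatives, and the late minus early difference 0.12 to 0.25. Of 464 single slopes recomputed, 448 moved by less than their standard error and 16 by more. Most of the 16 came from leaving out TBC1D4-deficient replicate 1, the rest from leaving out wild-type replicate 3 or 4. Without TBC1D4-deficient replicate 1, for example, Agxt2 went from 0.69 to 0.98 and Slc22a12 from 0.88 to 0.65. Averaging probe sets of a gene was not run, since each member has 1 with exactly 1 symbol. Dim genes, near background, can have understated slopes.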
